A study of Homo sapiens with 28 samples.

Results

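The 8 genes GREB1, PGR, MYB, CCND1, TFF1, TFF3, CTSD and AGR2 are textbook targets of the oestrogen receptor, and their chromatin was examined in T47D, an established oestrogen receptor positive luminal breast cancer cell line. They were taken by symbol from 19839 protein-coding genes of GRCh38, and a peak was assigned to a gene when it overlapped the gene span plus 20 kb on each side by at least 1 bp. All 8 were found, and no 2 of their windows overlapped. Chromatin immunoprecipitation followed by sequencing (ChIP-seq) had been done for ZHX2, a zinc finger and homeobox protein, for CTCF, a DNA-binding protein of chromatin loop anchors, and for acetylated lysine 27 of histone H3 (H3K27ac), a mark of active promoters and enhancers. Each was done in normoxia and in hypoxia, in T47D cells that the labels describe only by cell line and oxygen. In hypoxia alone, T47D cells carrying Flag-tagged ZHX2 in a wild-type form (WT) or as a mutant labelled PA were immunoprecipitated for Flag. The culture notes mention lentiviral infection and drug selection, give no oxygen level or duration of hypoxia, and name no oestrogen or receptor antagonist. They do not say which residues PA changes, or whether the untagged protein was still present in the Flag cells. There were 16 immunoprecipitated samples, 2 for each of 8 combinations of antibody, cells and oxygen, and 12 samples without antibody.

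The authors deposited 1 peak list per group, without replicate values, and the sequencing depth of the libraries is not stated in the sources at hand. No difference between conditions could therefore be tested, and all differences below are values of 1 list against 1 list. Fold means the authors' fold enrichment of a peak over background, and it is ranked only within its own list. The lists differ in length, with 14586 ZHX2 peaks in normoxia and 32343 in hypoxia, 88248 and 77334 CTCF peaks, 42586 and 46713 H3K27ac peaks, and 31278 WT and 16019 PA Flag regions. As a check of the cell line, H3K27ac lay within 1 kb of an end of 8 of 8 luminal markers (KRT8, KRT18, KRT19, EPCAM, ESR1, GATA3, FOXA1 and SPDEF) in both conditions. In both lists it also lay at 2 of 6 basal or myoepithelial markers (KRT17 and ACTA2), 2 of 4 immune markers (CD3E and CD68) and 1 of 5 endothelial or stromal markers (COL1A1). The defining markers KRT5, TP63, PTPRC and PECAM1 had none in either.

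The oestrogen receptor is a nuclear receptor that binds DNA as a dimer, either at palindromic response elements built from the core GGTCA or through other DNA-bound factors, and recruits coactivators that acetylate histones. In luminal breast cells it drives growth and secretion. GREB1 is a cofactor of the receptor, PGR encodes the progesterone receptor, MYB a transcription factor and CCND1 the cell cycle regulator cyclin D1. TFF1 and TFF3 are secreted trefoil peptides, CTSD is the lysosomal protease cathepsin D, and AGR2 is a protein disulphide isomerase of the endoplasmic reticulum.

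The promoters of CTSD, MYB and the outermost PGR start are shown because a hypoxia ZHX2 peak, and no normoxia one, overlapped them. They are the 250 bases upstream of an annotated start, from RefSeq on GRCh38, written 5′ to 3′ on the gene's own strand. Capitals mark GGTCA and ACGTG, the core of hypoxia response elements, searched on both strands. PGR has several annotated starts, and the innermost is also shown, although no ZHX2 peak covered its upstream bases.
CTSD, chr11:1763928-1764177, minus strand: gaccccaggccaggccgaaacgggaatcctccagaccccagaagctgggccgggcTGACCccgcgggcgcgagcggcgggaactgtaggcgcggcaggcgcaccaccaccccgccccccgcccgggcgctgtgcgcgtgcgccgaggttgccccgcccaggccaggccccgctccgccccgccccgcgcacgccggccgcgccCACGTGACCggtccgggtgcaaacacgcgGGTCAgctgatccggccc
MYB, chr6:135181058-135181307, plus strand: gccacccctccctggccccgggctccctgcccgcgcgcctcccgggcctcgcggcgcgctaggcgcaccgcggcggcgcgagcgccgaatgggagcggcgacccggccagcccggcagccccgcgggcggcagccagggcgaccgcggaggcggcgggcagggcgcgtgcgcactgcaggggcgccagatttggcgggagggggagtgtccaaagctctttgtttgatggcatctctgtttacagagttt
PGR, outermost start, chr11:101129814-101130063, minus strand: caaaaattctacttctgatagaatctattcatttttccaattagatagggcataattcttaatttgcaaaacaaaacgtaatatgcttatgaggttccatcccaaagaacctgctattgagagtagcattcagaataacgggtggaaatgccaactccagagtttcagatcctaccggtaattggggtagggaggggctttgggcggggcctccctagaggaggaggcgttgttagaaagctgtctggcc
PGR, innermost start, chr11:101129064-101129313, minus strand: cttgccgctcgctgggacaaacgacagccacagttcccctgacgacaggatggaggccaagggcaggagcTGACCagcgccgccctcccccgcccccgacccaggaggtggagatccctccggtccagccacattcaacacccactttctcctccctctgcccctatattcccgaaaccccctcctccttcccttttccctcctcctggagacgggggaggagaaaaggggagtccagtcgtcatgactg

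The CTSD promoter held 3 GGTCA cores, with first bases at positions -195, -43 and -18 counted back from the start. It also held ACGTG on each strand, because the run CACGTG reads the same on both, and that run overlaps the core at -43. Of these matches the core at -195 lay inside the hypoxia ZHX2 peak, both CTCF peaks and the WT Flag region, and the others lay inside H3K27ac alone. The MYB promoter and the outermost PGR promoter held neither motif, and the innermost PGR promoter held 1 GGTCA core at position -180, inside the CTCF, H3K27ac and Flag regions and outside any ZHX2 peak. The AGR2 promoter (not shown) held neither motif. No full response element, GGTCANNNTGACC, and no CTCF core, CCANNAGNNGGC, was found in the promoters searched. Over 34961 RefSeq promoter entries cut to the same 250 bases, GGTCA was found in 32.6%, ACGTG in 18.5%, the CTCF core in 2.02% and the full element in 0.04%. A match is a string of letters and was not tied to binding.

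Of these upstream bases, the hypoxia ZHX2 peak covered 250 of 250 at MYB, 191 at CTSD and 115 at the outermost PGR start. The CTSD promoter also had 155 bases in a CTCF peak in normoxia and 148 in hypoxia, 97 in a WT Flag region and 0 in a PA region. The MYB promoter lay wholly inside CTCF and H3K27ac of both conditions and inside 1 region of both Flag lists. At AGR2 no ZHX2 peak covered the promoter, and 155 of its bases lay in a region of both Flag lists.

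The first comparison asked at which of the 8 genes endogenous ZHX2 lay in each condition. In normoxia ZHX2 peaks lay in the windows of 4 genes, GREB1, TFF3, PGR and CCND1 (51.9% of all protein-coding genes had one). In hypoxia they lay in the windows of 7, all but TFF1 (77.0% of all genes). AGR2, MYB and CTSD had ZHX2 in the hypoxia list alone, which 27.1% of all genes did, and no member had it in the normoxia list alone, against 2.09%. The number of peaks was higher in hypoxia at 6 genes (59.0% of all genes), and TFF1 and TFF3 had equal numbers. Of the 5 members with spans under 20 kb, 2 had ZHX2 in normoxia and 4 in hypoxia, beside 49.6% and 69.8% of all genes of that length. Of the 3 longer members, 2 and 3 had it, beside 53.9% and 82.8%. With so few genes these counts are close to the shares of all genes, and the position and rank of the peaks are described next.

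**Figure D1:**
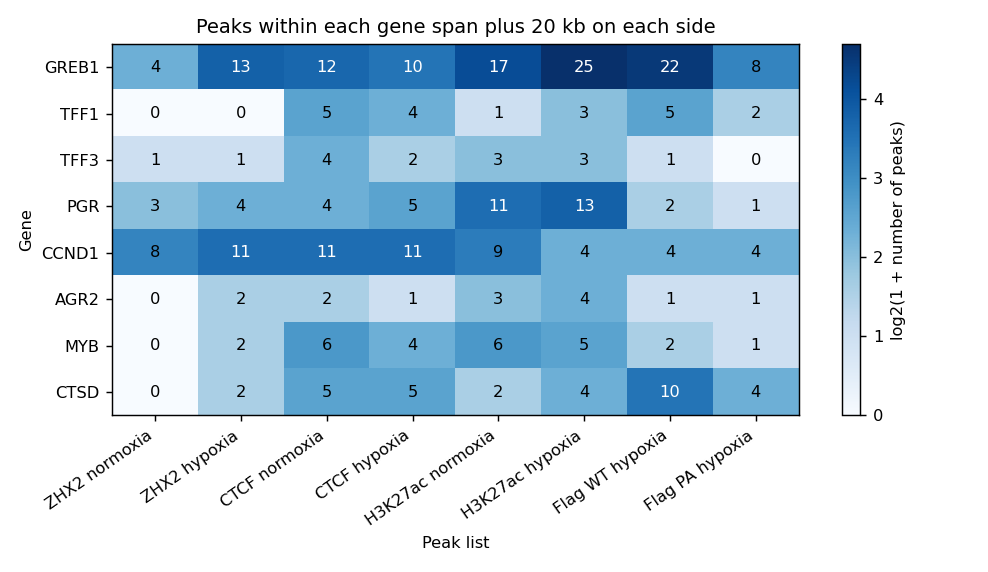
Number of peaks of each of the 8 lists (columns) in the window of each gene (rows), with colour on a scale of log2(1 + number of peaks). GREB1 and CCND1 have the most ZHX2 peaks in either condition, and TFF1 has 0 in both ZHX2 lists beside 5 WT and 2 PA Flag regions.

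Over all 8 windows there were 16 ZHX2 peaks in normoxia and 35 in hypoxia. Of the 35 hypoxia peaks, 12 overlapped a normoxia ZHX2 peak and 23 did not (65.7%, beside 72.6% of the whole hypoxia list). In normoxia 12 of the 16 overlapped a hypoxia peak and 4 did not (25.0%, beside 37.4% of the whole list). The 23 hypoxia-only peaks were spread over 7 genes, with 10 at GREB1, 3 each at CCND1 and PGR, 2 each at AGR2, MYB and CTSD, and 1 at TFF3. They had a median fold of 3.55 (2.48 to 6.07) against 4.19 (2.56 to 6.70) for the 12 shared peaks of the same list. A hypoxia-only peak can lie beside a normoxia peak without touching it, and this was so for 4 of the 23, which lay within 1 kb of one. Another 16 lay more than 10 kb from any normoxia ZHX2 peak. The hypoxia list is longer, and with both lists reduced to the 14586 peaks of the shorter one by score, the windows held 16 normoxia and 20 hypoxia peaks. Of those 20, 12 were then hypoxia-only, beside 54.4% of the shortened list, and TFF3 and AGR2 held no hypoxia peak.

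**Figure D2:**
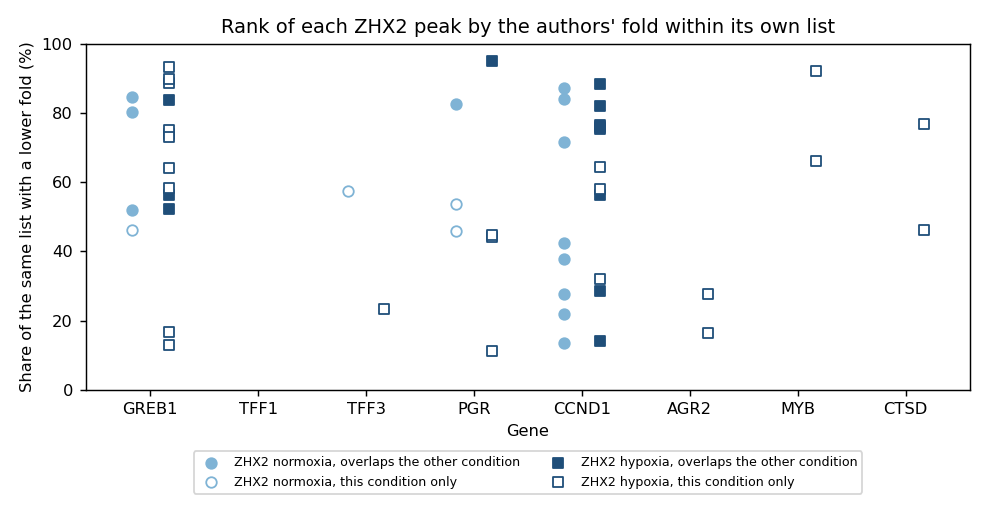
Each point is 1 ZHX2 peak in a gene window, placed by the share of its own list with a lower authors' fold (vertical axis, percent), for normoxia (circles) and hypoxia (squares), filled where it overlaps a peak of the other condition. The hypoxia peaks ranked highest lie at PGR (95.2%), GREB1 (93.4%) and MYB (92.1%), and both AGR2 peaks lie below 30% of the axis.

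GREB1, the receptor cofactor (chromosome 2, 11482888 to 11642788), had 4 ZHX2 peaks in normoxia and 13 in hypoxia. Peaks of its window numbered 12 and 10 for CTCF, 17 and 25 for H3K27ac, and 22 WT and 8 PA Flag regions. In normoxia ZHX2 lay at the neighbouring end of E2F6 (fold 4.73), in 2 peaks at the lower-coordinate end of GREB1 (3.28 and 3.40) and at 11592731 to 11593007 inside the gene (4.37). In hypoxia a ZHX2 peak overlapped each of these but the weaker one at the gene end, which had a hypoxia peak 106 bp away (11481745 to 11482518, fold 5.22). The other hypoxia-only peaks lay inside the gene. The one of the highest fold (11498553 to 11498866, 6.07, higher than 93.4% of the list) overlapped a CTCF peak of the normoxia list (fold 4.23). That CTCF peak had no counterpart in hypoxia, but it was a weak peak, with a fold higher than 3.6% of its list. ZHX2 in hypoxia therefore lay both at the end of the gene and across its body, where in normoxia it had a single peak away from the end.

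Most of the added GREB1 peaks lay in broad H3K27ac. The widest H3K27ac peak of the window ran from 11529415 to 11569041 in normoxia (39.6 kb, the 31st widest of its list) and from 11529447 to 11587332 in hypoxia (57.9 kb, rank 10 of its list). Inside the normoxia domain there were 0 normoxia and 5 hypoxia ZHX2 peaks. Inside the hypoxia domain there were 0 and 6, together with 13 WT and 5 PA Flag regions. The hypoxia domain also overlapped the next normoxia peaks, 11569690 to 11575783 and 11576626 to 11589695, which the normoxia list names separately. Its greater width therefore did not reflect newly covered length alone, and the window was covered to 53.5% in normoxia and 56.0% in hypoxia. The fold of the widest peak ranked higher than 98.1% of the normoxia list and 89.7% of the hypoxia list. One Flag region there, 11539220 to 11547442, was 8.22 kb wide in both Flag lists and overlapped 3 hypoxia ZHX2 peaks. The single hypoxia ZHX2 peak of any member outside H3K27ac, at 11592730 to 11593104, was also in GREB1 and was shared with normoxia.

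**Figure D3:**
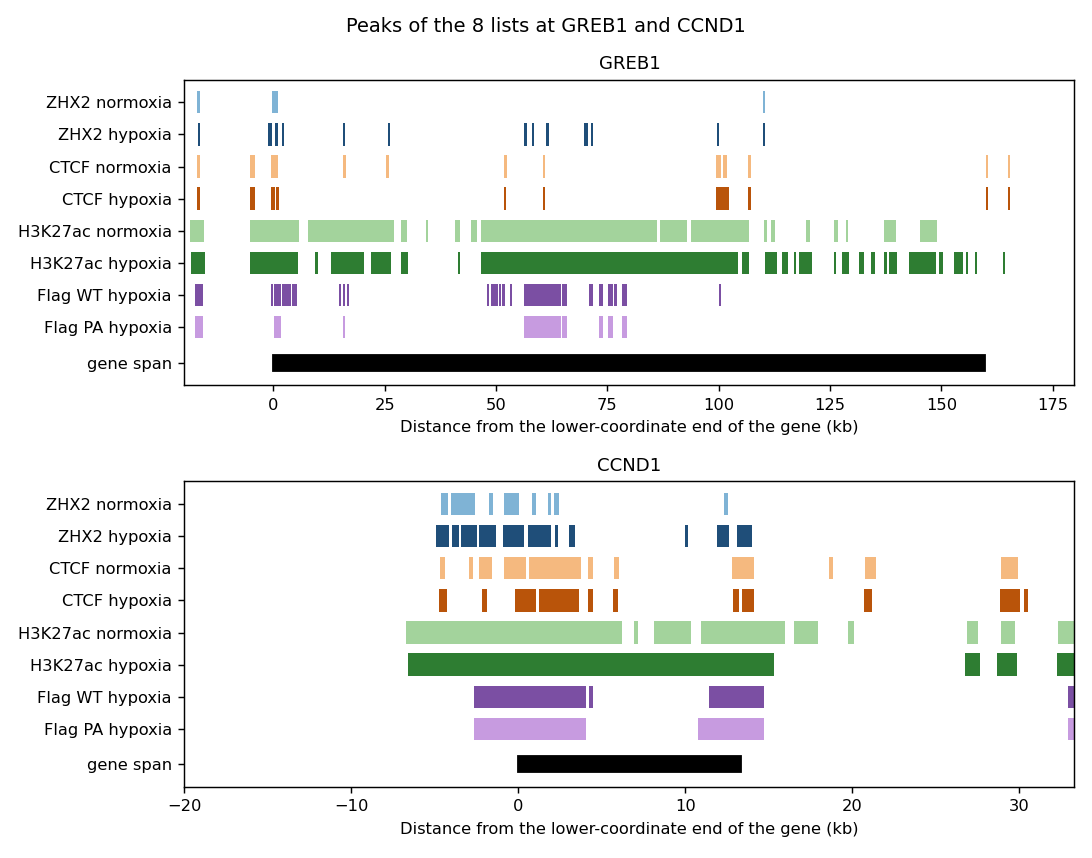
Peaks of the 8 lists (rows) at GREB1 and CCND1, placed by distance in kb from the lower-coordinate end of the gene, with the shortest peaks widened to stay visible and the gene span in black. At GREB1 the ZHX2 hypoxia row has peaks between 50 and 100 kb where the normoxia row has none, and at CCND1 the 2 ZHX2 rows lie over each other.

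PGR, the progesterone receptor gene (chromosome 11, 101029624 to 101129813, minus strand), had 3 ZHX2 peaks in normoxia and 4 in hypoxia. It had 4 and 5 CTCF peaks, 11 and 13 H3K27ac peaks, and 2 WT and 1 PA Flag regions. The lists shared 1 ZHX2 peak just inside the gene, from 101126965 to 101128518 in normoxia (fold 4.51, higher than 82.7% of the list) and from 101127031 to 101128710 in hypoxia (6.70, higher than 95.2%). The other normoxia peaks lay beyond the 3′ end of the gene (folds 3.28 and 3.41), outside every other list. The other hypoxia peaks lay in the gene body (2.48 and 3.21) and at the outermost start (101129573 to 101129928, fold 3.22). The strongest ZHX2 position of PGR was thus the same in both conditions, and a Flag region present in both Flag lists, 101125554 to 101129812, covered it.

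MYB, the transcription factor gene (chromosome 6, 135181308 to 135219172, plus strand), had 0 ZHX2 peaks in normoxia and 2 in hypoxia. It had 6 and 4 CTCF peaks, 6 and 5 H3K27ac peaks, and 2 WT and 1 PA Flag regions. The first hypoxia ZHX2 peak covered the promoter shown above (135180355 to 135181466, fold 5.80, higher than 92.1% of the list), and the nearest normoxia ZHX2 peak was 125701 bp away. It lay on CTCF and H3K27ac peaks of both conditions, whose folds at the start were 8.25 and 5.91 for CTCF and 17.5 and 17.2 for H3K27ac. The second ZHX2 peak lay inside the gene (135211239 to 135211775, fold 3.78) in an H3K27ac domain of both lists (16 and 12.3) without CTCF. At both MYB positions H3K27ac was already present in normoxia.

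CCND1, the cyclin D1 gene (chromosome 11, 69641156 to 69654474), had 8 ZHX2 peaks in normoxia and 11 in hypoxia. Its window had more ZHX2 peaks per length than those of 99.3% of all genes in normoxia and 99.0% in hypoxia. It had 11 and 11 CTCF peaks, 9 and 4 H3K27ac peaks, and 4 WT and 4 PA Flag regions. All 8 normoxia ZHX2 peaks overlapped a hypoxia peak, with folds of 2.60 to 4.99. The highest in hypoxia lay at 69636218 to 69637000 (fold 5.19), below the lower-coordinate end of the gene. The 3 hypoxia-only peaks (folds 2.95 to 3.71) lay within the gene or at its upper-coordinate end, and the closest was 540 bp from a normoxia peak. CCND1 thus had the densest ZHX2 of the 8 genes in both conditions, and each hypoxia-only peak lay within 2139 bp of a normoxia peak.

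At CCND1 the smaller number of H3K27ac peaks in hypoxia did not reflect less covered length. The window was covered to 46.3% in normoxia and 47.2% in hypoxia. A domain of 12.9 kb over the lower end in normoxia and its next neighbours overlapped a single domain of 21.9 kb in hypoxia, which covered the whole gene and held 11 ZHX2, 8 CTCF, 3 WT and 3 PA peaks. The strongest CTCF peak of the window lay inside the gene in both lists, at 69641786 to 69644931 in normoxia (fold 261) and 69642392 to 69644796 in hypoxia (fold 279). A Flag region of both lists lay at an end of the neighbouring gene LTO1 (69674083 to 69675859), so the 4 regions are not all at CCND1 itself.

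TFF1, a trefoil peptide gene (chromosome 21, 42362282 to 42366535), had 0 ZHX2 peaks in either list. It had 5 and 4 CTCF peaks, 1 and 3 H3K27ac peaks, and 5 WT and 2 PA Flag regions. A Flag region of both lists, 42362976 to 42367105, covered most of the gene and ran past its upper-coordinate end (4130 bp, wider than 98.3% of the WT list). A WT Flag region without any hypoxia ZHX2 peak in the window was seen at 1 of the 8 genes, TFF1, and at 7.37% of all genes. H3K27ac at TFF1 was scant in normoxia, with a single peak near 14.4 kb from the lower end inside TMPRSS3 (fold 3.60). In hypoxia that position had a fold of 5.78. A hypoxia peak absent from normoxia lay inside TFF1, its start 337 bp from the lower-coordinate end (42362619 to 42364076, fold 3.22). Another lay below that end (42356874 to 42357421, fold 2.95). TFF1 was thus the 1 member with tagged and without endogenous ZHX2 in its window in hypoxia. This depended on the window, since with a flank of 50 kb all 8 members had a hypoxia ZHX2 peak.

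TFF3, the other trefoil gene (chromosome 21, 42311667 to 42315409), had 1 ZHX2 peak in each list, at separate places. It had 4 and 2 CTCF peaks, 3 and 3 H3K27ac peaks, and 1 WT and 0 PA Flag regions. The WT region (42292549 to 42293516) lay inside the neighbouring gene ABCG1. The normoxia ZHX2 peak (fold 3.52) reached into the window by 65 bp from inside the neighbouring gene ABCG1, so it says little of TFF3. The hypoxia peak lay across the upper-coordinate end (42315336 to 42315663, fold 2.77, higher than 23.3% of the list). A normoxia CTCF peak with no overlap in hypoxia lay at the same place (42315395 to 42315669, fold 4.56, higher than 5.40% of its list), so both are weak peaks of their lists. The strongest CTCF peak of all 8 windows in normoxia lay beside TFF3, at 42308652 to 42310831 with a fold of 341, and was shared with hypoxia at a fold of 250.

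CTSD, the cathepsin D gene (chromosome 11, 1752755 to 1763927, minus strand), had 0 ZHX2 peaks in normoxia and 2 in hypoxia. It had 5 and 5 CTCF peaks, 2 and 4 H3K27ac peaks, and 10 WT and 4 PA Flag regions. A ZHX2 peak of hypoxia lay just upstream of the start (1763987 to 1764339, fold 4.26, higher than 76.8% of the list), over the promoter shown above. Its summit was 14 bp from that of the hypoxia CTCF peak there, and a CTCF peak lay there in normoxia as well (folds 26.3 and 14.1). The second ZHX2 peak lay in the gene (1756070 to 1756318, fold 3.25). An H3K27ac domain covered the gene and its promoter in both lists, with widths of 22.1 and 22.2 kb. The WT Flag regions of the CTSD window were denser than those of 98.7% of all genes, and 1 of the 10 overlapped a hypoxia ZHX2 peak. A Flag region of both lists at the end of IFITM10 (1749330 to 1751698) is among them.

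AGR2, the disulphide isomerase gene (chromosome 7, 16791811 to 16804999, minus strand), had 0 ZHX2 peaks in normoxia and 2 in hypoxia. It had 2 and 1 CTCF peaks, 3 and 4 H3K27ac peaks, and 1 Flag region, the same in WT and PA (16804087 to 16805154, over the start). The ZHX2 peaks lay on either side of the start, at 16803965 to 16804173 (fold 2.85, higher than 27.6% of the list) and 16805261 to 16805521 (2.62, higher than 16.4%). They are weak peaks of their list, and neither overlapped CTCF. H3K27ac covered most of the gene in both conditions, in a domain of 15.6 kb in normoxia and of 14.1 kb in hypoxia.

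**Figure D4:**
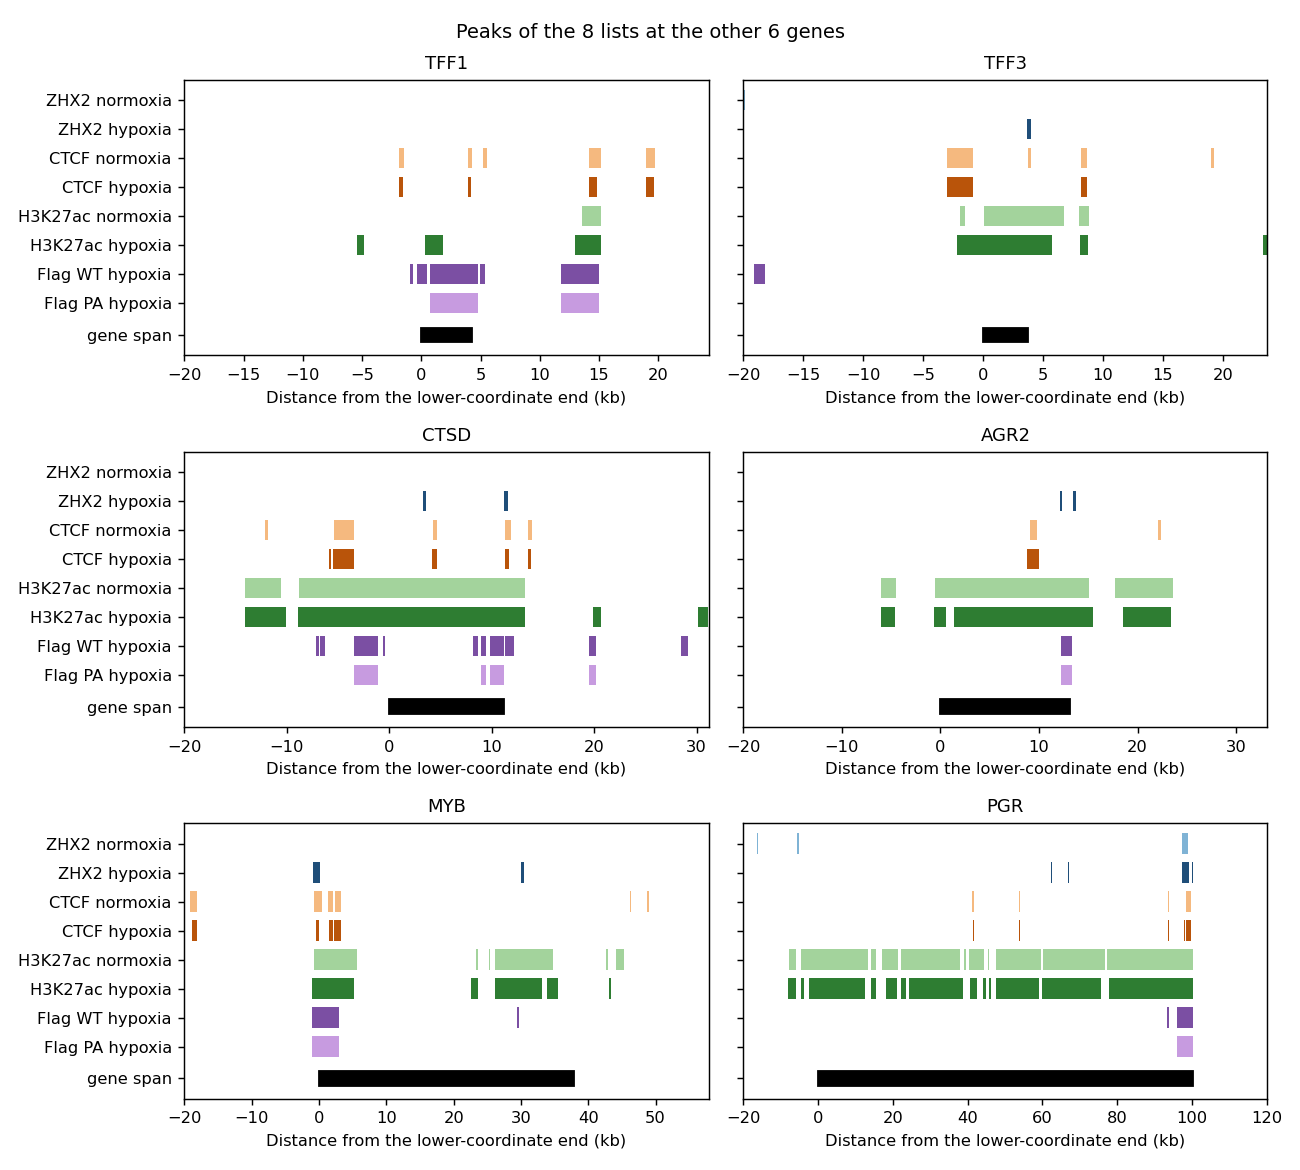
Peaks of the 8 lists (rows) at the other 6 genes, placed by distance in kb from the lower-coordinate end of each gene, with the shortest peaks widened to stay visible and the gene span in black. The ZHX2 normoxia row is empty at TFF1, CTSD, AGR2 and MYB. Both Flag rows cover most of the TFF1 span although both ZHX2 rows are empty there.

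CTCF was compared between conditions at the same genes. All 8 had CTCF peaks in both lists, as did 94.3% of all genes in normoxia and 93.2% in hypoxia. Peaks were more numerous in normoxia at 5 genes (GREB1, TFF1, TFF3, AGR2 and MYB), beside 41.8% of all genes, in lists where the normoxia one is the longer. Of the 49 normoxia peaks, 11 had no hypoxia overlap (22.4%, beside 17.7% of the whole list), and these were weak, with folds of 3.49 to 7.30 against a median of 23.7 for the 38 shared ones. Of the 42 hypoxia peaks, 3 were hypoxia-only (7.14%, beside 6.96%), at PGR, CCND1 and CTSD, with folds of 3.48 to 4.19. With both CTCF lists reduced to equal length, 5 peaks at the members were normoxia-only and 6 hypoxia-only. The excess of normoxia-only over hypoxia-only peaks therefore did not hold. Shares of the shortened CTCF lists and counts by gene at equal length are not at hand, so these counts have no background. The strong CTCF positions of these genes were thus present in both lists, among them those beside TFF3, inside CCND1, and inside MYB (135183656 to 135184579 in normoxia, fold 112, and 135183575 to 135184589 in hypoxia, fold 134).

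H3K27ac was compared by the covered share of each window, since broad peaks can split or join. All 8 genes had H3K27ac in both lists, as did 81.5% of all genes in normoxia and 82.6% in hypoxia. The covered share was highest at PGR, with 69.5% in normoxia and 64.9% in hypoxia, followed by GREB1 with 53.5% and 56.0%. CTSD had 50.1% and 54.5%, and CCND1 46.3% and 47.2%. AGR2 had 43.2% and 40.6%, MYB 21.8% and 20.9%, and TFF3 18.0% and 20.4%. TFF1 was lowest, with 3.65% and 9.52%, where the median of all protein-coding genes was 4.77% and 5.24%. The share was higher in hypoxia at 5 genes (GREB1, TFF1, TFF3, CCND1 and CTSD) and lower at PGR, AGR2 and MYB, and it was higher at 57.3% of all genes.

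The H3K27ac peaks present in 1 condition alone were of low fold. Of 52 normoxia peaks, 8 were absent in hypoxia (15.4%, beside 10.9% of the whole list), with folds of 2.47 to 3.94. Of 61 hypoxia peaks, 14 were absent in normoxia (23%, beside 19.4%), with folds of 2.60 to 3.82. GREB1 held 9 of the 14, all in the upper-coordinate part of the gene or just beyond it. H3K27ac peaks at both ends of PGR, CCND1, CTSD, AGR2 and TFF3, and at the lower-coordinate end of MYB and GREB1, were present in both lists.

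**Figure D5:**
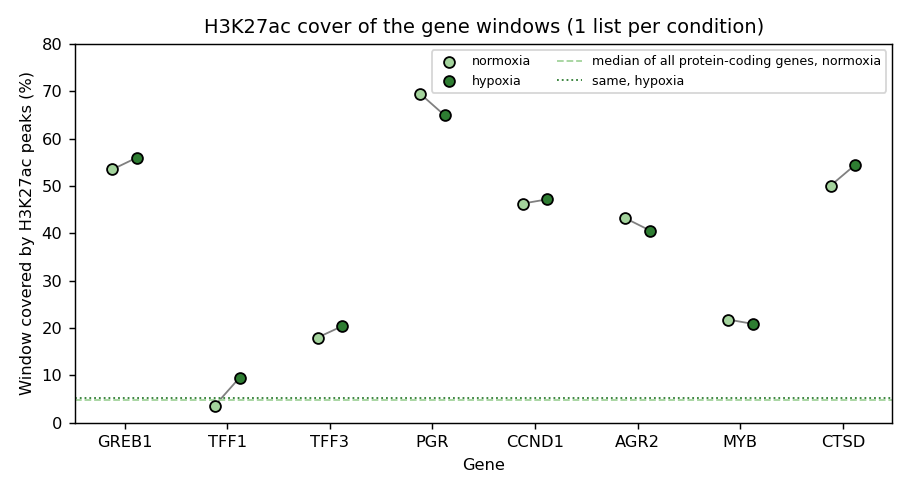
Share of each gene window covered by H3K27ac peaks (vertical axis, percent) in normoxia (light) and hypoxia (dark), 1 list each, with lines for the medians of all protein-coding genes. All genes but TFF1 in normoxia lie above the medians of 4.77% and 5.24%, and the points of TFF1, at 3.65% and 9.52%, lie on either side of them.

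The next comparison asked where ZHX2 lay relative to CTCF, H3K27ac and the tagged protein. In hypoxia 34 of the 35 ZHX2 peaks at the 8 genes overlapped H3K27ac (97.1%, beside 72.9% of the whole ZHX2 list), and 34 also overlapped H3K27ac of the normoxia list, beside 71.4%. The 7 windows that held these peaks were covered by H3K27ac above the median of all genes, and the part of this in the share was not tested. CTCF lay under 14 of the 35 (40%, beside 45.6%), all on H3K27ac, and 20 had H3K27ac without CTCF (57.1%, beside 32.5%). In normoxia 11 of 16 ZHX2 peaks overlapped CTCF (68.8%, beside 43.6%) and 12 overlapped H3K27ac (75.0%, beside 56.7%). The normoxia figures rest largely on 1 gene, since 8 of the 16 peaks were at CCND1. By gene, CTCF lay under 7 of 11 hypoxia ZHX2 peaks at CCND1, 4 of 13 at GREB1, and 1 each at PGR, MYB and CTSD. Where ZHX2 and CTCF peaks overlapped, their summits lay a median of 124 bp apart in hypoxia (14 to 1823 bp, 14 peaks) and 553 bp in normoxia (0 to 1461 bp, 11 peaks).

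Tagged and endogenous ZHX2 in hypoxia overlapped in part. Of the 35 endogenous peaks, 22 overlapped a WT Flag region (62.9%, beside 54.2% of the whole list) and 18 a PA region (51.4%, beside 44.2%). Of the 47 WT Flag regions, 14 overlapped an endogenous peak (29.8%, beside 44.9%). At CCND1 8 of 11 endogenous peaks were under WT Flag regions and at GREB1 9 of 13. At CTSD, GREB1 and TFF1 most WT Flag regions had no endogenous peak, with 9 of 10, 15 of 22 and 5 of 5. H3K27ac of hypoxia lay at 43 of the 47 WT regions (91.5%, beside 72.3%) and at all 21 PA regions, beside 84.4% of the whole PA list.

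The last comparison set the WT form of tagged ZHX2 against the PA form. WT Flag regions lay at all 8 genes and PA regions at 7, with TFF3 lacking one, where 77.1% and 68.4% of all genes had them. The WT region of the TFF3 window lay inside ABCG1, and with no flank both forms were at 7 genes. WT regions were more numerous at 6 genes (48.6% of all genes), and CCND1 and AGR2 had equal numbers. Of the 47 WT regions, 27 were absent from the PA list (57.4%, beside 51.5% of the whole list), with 14 at GREB1, 6 at CTSD and 3 at TFF1. Of the 21 PA regions, 20 were shared and 1, at CCND1 (69651922 to 69652591), was absent from the WT list (4.76%, beside 5.34% of the whole list). The WT-only regions were narrow, with a median of 481 bp (209 to 1572 bp), against 1720 bp (484 to 8223 bp) for the shared ones, and the same held over the whole WT list (436 and 1575 bp). Shared regions have the same start and end in both Flag lists, at 15163 of 15163 in all. The ends of these regions are thus not independent between the lists, and a region counted as WT-only is one that the PA list does not name. Regions over most of TFF1, the inner PGR starts, the starts of MYB and AGR2 and both ends of CCND1 were in both lists. The PGR region ended just short of the outermost start. Also in both lists were regions just inside the start of CTSD (1762546 to 1763923) and just inside the lower end of GREB1 (11482962 to 11484662). Beside these, regions just upstream of the CTSD start (1764081 to 1764975) and at the lower end of GREB1 (11482276 to 11482630) were in the WT list alone.

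Other oestrogen-responsive genes were counted in the same windows, from a list of 40 drawn up from general knowledge. The list was chosen with earlier results of these data known, so its counts are not an independent check. ZHX2 peaks lay at 28 of the 40 in normoxia and at 39 in hypoxia, with 12 in the hypoxia list alone and 1, PDZK1, in the normoxia list alone. The shares of all protein-coding genes were 51.9%, 77.0%, 27.1% and 2.09%, and 12 of 40 is near that of the hypoxia list alone. All 40 had CTCF in both lists (94.3% and 93.2% of all genes), 39 had H3K27ac in each (81.5% and 82.6%), and 38 had WT and 35 PA Flag regions (77.1% and 68.4%). The hypoxia-only ZHX2 peaks of highest fold lay at STC2, a secreted glycoprotein (6.92), FOS, a subunit of the AP-1 transcription factor (6.45), and CISH, an inhibitor of cytokine signalling (6.33). The normoxia-only peaks of highest fold lay at HSPB8, a small heat shock protein (6.88), CXXC5, a zinc finger protein (3.84), and ADCY9, an adenylyl cyclase (3.52), and these 3 genes also had hypoxia ZHX2 peaks. A further list of 14 held genes for the receptor, its partner factors and its coregulators, and also PGRMC1, a haem-binding membrane protein. Of these 14 genes, 13 had ZHX2 in normoxia and 14 in hypoxia, beside the same 51.9% and 77.0% of all genes. The 1 with ZHX2 in hypoxia alone was PGRMC1 (fold 6.39). PDZK1 and PGRMC1 were named after their values were seen.

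For each of the 8 genes, the gene among these 40 with the closest pattern was found by the Euclidean distance over the 8 lists of log2(1 + peaks per 100 kb of window). The closest pair was PGR with ADCY9 (0.807), followed by MYB with RERG (1.07), TFF3 with ADCY9 (1.20) and GREB1 with MCM2 (1.38). CTSD was closest to TMPRSS3 (1.51), AGR2 to SLC39A6 (1.58) and TFF1 to TMPRSS3 (1.67), whose window overlaps that of TFF1. CCND1 was closest to CXXC5 at 1.92, the largest of the 8 distances. These are likenesses of peak counts over 8 lists.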

How the data were processed

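The 28 samples were grouped by title and antibody label into 8 immunoprecipitated groups of 2 and 12 samples without antibody, of which 4 are titled Flag but name no antibody and were kept out of the Flag groups. The tools named in the submitters' processing notes are MACS2, Bowtie2 and cutadapt, with GRCh38 (hg38) as the build and no versions. The authors deposited 1 peak list per group. Pooling of samples, use of controls and sequencing depth are not given in the sources used here, and a single peak therefore has no known precision. The deposited score of a peak, its fold (a ratio over background) and its −log10 q are the authors' values and were used only to rank or filter peaks within a list. Peaks are narrow with summits for ZHX2 and CTCF and broad for H3K27ac, and Flag lists give positions alone. ZHX2 peaks reached down to a −log10 q of 1.30 and CTCF peaks to 5.00 and 5.09, so peak numbers are not compared between antibodies.

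Gene spans came from a RefSeq table of GRCh38.p14 without strand, and promoters from a RefSeq table of the same build that held 4 of the 8 genes. Genes on chromosomes 1 to 22 and X were used. Peaks were shared when they overlapped by at least 1 bp. Strings were searched in the upstream bases with python 3.11.15, pandas 2.3.3 and numpy 2.4.6, and the overlap steps were tested on simulated data. The members and gene lists were chosen with earlier results of these data known. The text names all 8 members in every list, genes in their windows with a ZHX2 or Flag peak within 1 kb of an end (E2F6, LTO1 and IFITM10), and from the list of 40 the 3 highest folds of hypoxia-only and of normoxia-only ZHX2 peaks and the closest pattern to each member. Alternatives were other flanks, other overlaps, stricter peaks and lists of equal length.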

Additional observations from a re-analysis of the deposited data

How the results depend on the processing

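No paired analysis was possible because each group has 1 peak list without replicate values, and for the same reason no replicate could be left out. Of 124 recomputed counts 94 stayed within 1.5 times the reported one. Among them were all those at a −log10 q of at least 5 (24) and with an overlap of 50% of the shorter peak (14). The numbers of members with a peak in each list also stayed within it. They cannot exceed 8, so a wider flank could move those of 7 or 8 little. The number of members with a hypoxia ZHX2 peak fell from 7 to 5 with the upper 50% by score and with lists of equal length. The filter on −log10 q removes no CTCF peak, since all CTCF peaks reach it, so the CTCF counts could not change under it. With no flank, fewer bases are searched: peaks at the members fell from 16 to 8 for ZHX2 in normoxia, and to 24 and 22 for CTCF in normoxia and hypoxia. Without a flank, normoxia-only peaks were 0 for ZHX2, 3 for CTCF and 4 for H3K27ac, hypoxia-only peaks were 1 for CTCF and 9 for H3K27ac, normoxia ZHX2 peaks on CTCF were 6 and on H3K27ac 7, and hypoxia ZHX2 peaks on CTCF were 9. With a flank of 50 kb, CTCF peaks were 78 in normoxia and 65 in hypoxia, normoxia H3K27ac peaks 81, and normoxia-only peaks 7 for ZHX2, 17 for CTCF and 15 for H3K27ac. With the upper 50% of each list by score, which removes peaks by construction, ZHX2 peaks were 9 in normoxia and 21 in hypoxia, CTCF peaks 22 and 16, and H3K27ac peaks 19 and 20. With lists of equal length, hypoxia-only ZHX2 peaks fell from 23 to 12 (of 20, beside 54.4% of the shortened list). Normoxia-only ZHX2 peaks rose from 4 to 7 (of 16, beside 51.6% of that list). Normoxia-only CTCF peaks were 5 and hypoxia-only ones 6, without shares of the shortened lists. Within 3 kb of a gene end, H3K27ac in hypoxia lay at 4 of 6 basal markers, and at 2 of 5 endothelial or stromal markers in each condition.

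Depth is unknown, so absence from a list is only absence at its threshold: with lists of equal length the hypoxia ZHX2 peaks at AGR2 and TFF3 were gone, and 20 remained at the other genes. Direction of transcription was known here for PGR, MYB, CTSD and AGR2.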
